A study of Homo sapiens with 12 samples.

Results

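ATF4 and the stress regulators that act around it are described here at the mRNA level in pancreatic ductal adenocarcinoma (PDAC) cells before and after they became resistant to oxamate, an inhibitor of lactate dehydrogenase A (LDHA). The 10 genes, ATF4, ATF3, ATF5, DDIT3, DDIT4, TRIB3, CHAC1, SESN2, PPP1R15A and CEBPB, were taken by symbol from 26475 genes in the count table, and all 10 were among the 14582 genes tested. RNA-seq was performed on MIAPaCa2, an established PDAC cell line, in 4 conditions with 3 libraries each: parental cells without drug, parental cells with oxamate, oxamate-resistant cells without drug, and oxamate-resistant cells with oxamate. The labels call the cells without drug untreated, and the study's account of its RNA-seq results calls them treated with vehicle, the name used here. The resistant cells were a polyclonal population grown out from the parental line under continuous oxamate, so they had met the drug before the experiment. The sources used here do not say how many such populations the resistant libraries came from. The dose and duration of oxamate for these libraries were not given in the sources used here, and nothing states whether the 3 libraries of a condition came from separate cultures, so the p-values measure the spread between libraries, which may be technical.

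The integrated stress response works through eIF2, the factor that brings the initiator transfer RNA to the ribosome. When stress kinases phosphorylate eIF2, most translation slows while the ATF4 mRNA is translated more, and the ATF4 protein then switches on genes for amino acid supply and for the later steps of the response. Among these are DDIT3 (CHOP) and ATF3, transcription factors tied to prolonged stress, TRIB3, a pseudokinase that restrains ATF4 and AKT, and PPP1R15A (GADD34), which guides a phosphatase back to eIF2. Because much of the control of ATF4 lies in translation, its mRNA level does not report the amount of ATF4 protein, and protein was not measured here. Levels in bulk RNA also cannot tell fewer expressing cells from less RNA per cell.

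Promoter windows, from 250 bases before to 50 bases after each RefSeq transcription start, were searched for the letters of 2 motifs that bind factors of this family. Every match among the 10 genes is shown, whatever the direction of the gene in the results. The 10 genes have 18 promoters in the set, so counts by gene and shares by promoter are in unlike units. The C/EBP-ATF core TGATGCAA, searched on both strands (reverse complement TTGCATCA), occurred in 304 of 35116 RefSeq promoters (0.866%) and among the 10 genes in CHAC1 alone. The cyclic AMP response element TGACGTCA, which reads the same on both strands, occurred in 649 promoters (1.85%) and among the 10 genes in PPP1R15A alone. Both windows are from GRCh38.p14, plus strand, with the match in capitals, 209 to 202 bases before the start of CHAC1 at chr15:40953251-40953280 (within an exon of a longer GENCODE transcript of the gene) and 58 to 51 bases before the start of PPP1R15A at chr19:48872272-48872391. A match is a description of letters, not evidence that a factor binds there.
CHAC1: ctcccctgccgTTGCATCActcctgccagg
PPP1R15A: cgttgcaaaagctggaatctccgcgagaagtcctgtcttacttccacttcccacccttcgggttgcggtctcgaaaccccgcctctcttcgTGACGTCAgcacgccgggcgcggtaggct

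Library totals were between 46698729 and 114222169 expected counts, with every parental library deeper than every resistant library, and the 10 genes had between 59 (CHAC1) and 51738 (DDIT4) expected counts in a library. Levels are given as CPM, the counts of a gene relative to its library's total after TMM scaling, and a floor of 3 counts corresponded to between 0.0283 and 0.0581 CPM, counting error only. A gene was called at a Benjamini-Hochberg adjusted p under 0.05 in edgeR's quasi-likelihood test, fitted over all 14582 genes and all 12 libraries. LDHA, the target of the drug, was at 1074 ± 13.6, 1647 ± 87.6, 960.0 ± 13.8 and 1213 ± 13.4 CPM (SD, n = 3) in parental vehicle, parental oxamate, resistant vehicle and resistant oxamate cells. KRT8, KRT18 and VIM were present in every condition, at 676.3 CPM or more, and all 3 were lower in resistant cells, CDKN2A, CDKN2B and MTAP, which this line has lost, were at 0 in all 12 libraries, and 11 markers of blood, endothelial, fibroblast, acinar and islet cells summed to between 2.20 and 5.43 CPM, with 6 to 8 of them at 0. In 2 libraries, parental oxamate replicate 3 and resistant vehicle replicate 3, 4 nuclear-retained RNAs (among them NEAT1 and MALAT1) summed to 1187 and 1112 CPM, while the other libraries of those conditions were between 534 and 583 CPM. The resistant oxamate libraries were between 1080 and 1407 CPM and the parental vehicle libraries between 321 and 357 CPM, so this measure also moved with condition, and its part in the results was not tested beyond the values given beside them.

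**Figure D1:**
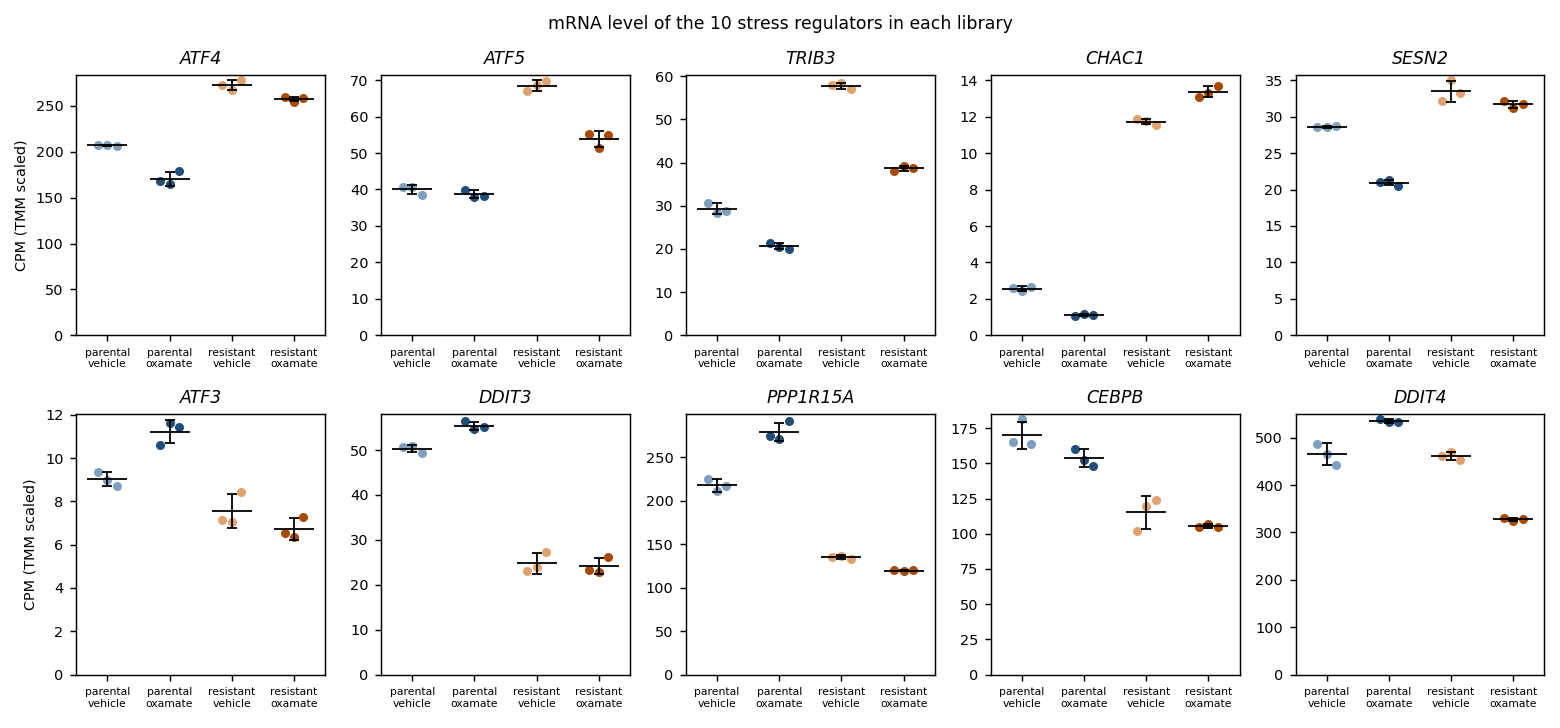
Level of the 10 genes in each library (y axis, CPM after TMM scaling, from 0) by condition (x axis). Points are libraries, the bar is the mean and the whisker the SD of 3. The top row holds the 5 genes that were higher in resistant cells, with CHAC1 going from 1.12 CPM in oxamate-treated parental cells to 13.4 CPM in oxamate-treated resistant cells, and the bottom row holds the 5 that were lower in resistant than in parental cells with both lines under oxamate.

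The 10 genes fell into opposite directions between the cell lines, about as evenly as all genes tested did. With both lines under oxamate, ATF4, ATF5, TRIB3, CHAC1 and SESN2 were higher in resistant cells and ATF3, DDIT3, PPP1R15A, CEBPB and DDIT4 were lower, so that 10 of 10 genes were called. Of these, 8 differed by more than 1.5-fold. In this comparison 40.6% of all genes tested were called higher, 39.7% lower, and 34.1% past 1.5-fold in either direction. Under vehicle 5 genes were higher, 4 were lower and DDIT4 was not called, with 5 past 1.5-fold, where 38.4% of all genes were higher, 37.3% lower and 23.1% past 1.5-fold. The median log2 fold change of the 10 genes was -0.03 under oxamate and 0.11 under vehicle, beside 0.01 and 0.03 over all genes. Such medians do not show how genes divide, and the division of the 10 genes was near that of all genes. The same counts of higher and lower genes held without the 2 libraries rich in nuclear-retained RNA.

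CHAC1 (chr15:40952962-40956519, plus strand, hg38), which degrades the antioxidant peptide glutathione, had the largest difference of the 10 genes between the lines. It was at 2.62, 2.41 and 2.64 CPM in parental vehicle cells and at 1.05, 1.18 and 1.13 CPM in parental oxamate cells. In resistant cells it was at 11.9, 11.8 and 11.6 CPM after vehicle and 13.1, 13.3 and 13.7 CPM after oxamate. No 2 conditions overlapped, and every resistant library lay above every parental library. CHAC1 was 4.597-fold higher in resistant cells under vehicle (log2 fold change 2.20 ± 0.057 SE, adjusted p = 2.23e-14) and 11.9-fold higher under oxamate (3.57 ± 0.069, adjusted p = 3.70e-16), with only 103 of the 14582 genes having a larger log2 fold change under oxamate. Oxamate lowered CHAC1 in parental cells (log2 fold change -1.18 ± 0.080, adjusted p = 6.47e-09) and raised it slightly in resistant cells (0.19 ± 0.050, adjusted p = 0.0155). The call in resistant cells was lost in 4 of 24 alternative fits: with the covariate for nuclear-retained RNA (0.20, adjusted p = 0.0979), with DESeq2 (adjusted p = 0.0731), and with either resistant vehicle replicate 2 (0.0536) or resistant oxamate replicate 3 (0.0695) left out.

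ATF4 itself (chr22:39519695-39522685, plus strand, hg38), the transcription factor at the centre of the response, was higher in resistant cells by a smaller margin. In parental cells its mRNA was at 207.3, 207.3 and 206.5 CPM after vehicle and 168.2, 164.4 and 179.1 CPM after oxamate. In resistant cells it was at 272.4, 267.2 and 278.4 CPM after vehicle and 259.2, 254.8 and 258.3 CPM after oxamate. Every resistant library was above every parental library, and within each line the vehicle and oxamate libraries did not overlap. Between lines the log2 fold change was 0.40 ± 0.029 under vehicle (adjusted p = 4.04e-09) and 0.59 ± 0.029 under oxamate (adjusted p = 1.86e-11). Oxamate lowered ATF4 in parental cells by edgeR's test (log2 fold change -0.28 ± 0.029, adjusted p = 7.40e-07), while in resistant cells the value was -0.08 ± 0.029 (adjusted p = 0.0529), which 10 of 24 alternative fits placed past the threshold.

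ATF5, a factor of the same family that is also controlled by translation, and TRIB3 were higher in resistant cells and lower with oxamate in them. ATF5 was at 40.7, 40.8 and 38.6 CPM in parental vehicle, 39.9, 37.9 and 38.2 CPM in parental oxamate, 66.9, 68.7 and 69.8 CPM in resistant vehicle and 55.1, 51.4 and 55.0 CPM in resistant oxamate libraries. The 2 parental conditions overlapped, the resistant ones did not, and every resistant library was above every parental library (log2 fold change between lines 0.77 ± 0.034 under vehicle, adjusted p = 1.01e-11, and 0.48 ± 0.036 under oxamate, adjusted p = 2.91e-09). Oxamate lowered ATF5 in resistant cells (log2 fold change -0.35 ± 0.034, adjusted p = 6.52e-06) and it was not called in parental cells (-0.05 ± 0.035, adjusted p = 0.214), except with library size alone (-0.13, adjusted p = 0.00702). Reads of ATF5 are less certain than those of most of the 10 genes, because 11 of its 12 expected counts were not whole and NUP62 and IL4I1 overlap it on the other strand.

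TRIB3 was at 30.7, 28.3 and 28.8 CPM in parental vehicle, 21.4, 20.5 and 20.01 CPM in parental oxamate, 57.9, 58.4 and 57.1 CPM in resistant vehicle and 38.0, 39.2 and 38.7 CPM in resistant oxamate libraries. None of the 4 conditions overlapped. It was 1.97-fold higher in resistant cells under vehicle (log2 fold change 0.98 ± 0.034, adjusted p = 7.57e-13) and 1.87-fold under oxamate (0.91 ± 0.038, adjusted p = 2.31e-12), and oxamate lowered it in both lines, with a log2 fold change of -0.51 ± 0.037 in parental cells (adjusted p = 1.62e-08) and -0.58 ± 0.035 in resistant cells (adjusted p = 2.54e-08). The difference between those responses was -0.07 ± 0.051 (adjusted p = 0.256). In resistant cells 86 of the 14582 genes had a lower log2 fold change than TRIB3.

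SESN2, a sestrin that holds back mTORC1 when amino acids are short, was at 28.5, 28.5 and 28.7 CPM in parental vehicle, 21.0, 21.2 and 20.5 CPM in parental oxamate, 32.2, 35.1 and 33.2 CPM in resistant vehicle and 32.2, 31.2 and 31.7 CPM in resistant oxamate libraries. The parental oxamate libraries lay below all others and all resistant libraries lay above the parental ones. Oxamate lowered it in parental cells (log2 fold change -0.45 ± 0.035, adjusted p = 3.13e-08) and it was not called in resistant cells (-0.08 ± 0.035, adjusted p = 0.118). The lines differed by 0.23 ± 0.034 under vehicle (adjusted p = 1.50e-05) and 0.60 ± 0.036 under oxamate (adjusted p = 2.01e-10).

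**Figure D2:**
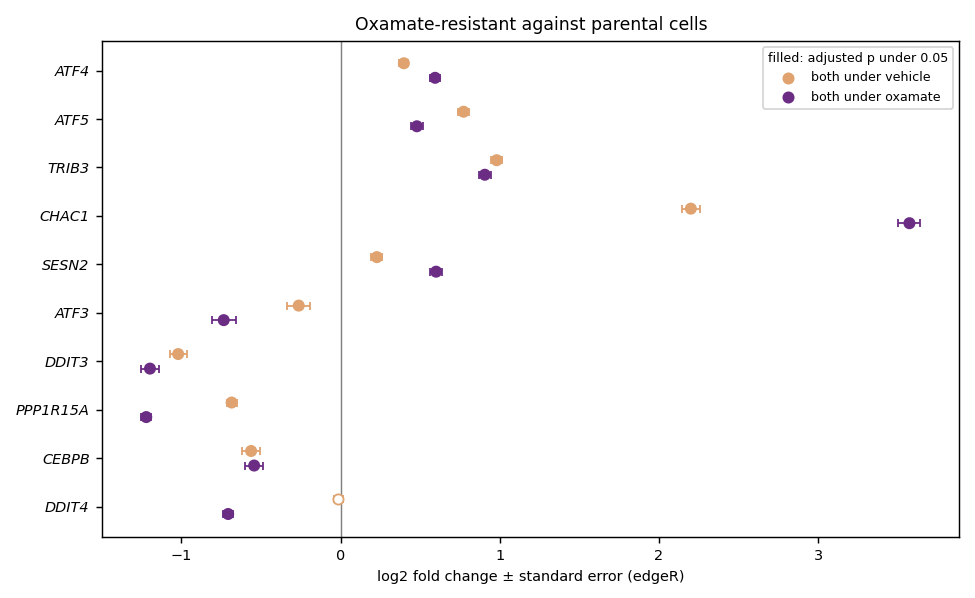
Difference between resistant and parental cells for the 10 genes (x axis, log2 fold change, positive where resistant cells were higher), with both lines under vehicle or both under oxamate. Points are edgeR estimates from 3 against 3 libraries, whiskers the standard error, and filled points passed an adjusted p of 0.05. CHAC1 lies farthest to the right at 2.20 and 3.57, PPP1R15A farthest to the left under oxamate at -1.22, and DDIT4 near 0 under vehicle only.

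PPP1R15A (chr19:48872392-48876057, plus strand, hg38), the phosphatase subunit, ran opposite to CHAC1. It was at 224.9, 210.7 and 216.2 CPM in parental vehicle and 274.5, 270.5 and 291.0 CPM in parental oxamate libraries. In resistant cells it was at 135.7, 136.7 and 133.1 CPM after vehicle and 119.6, 119.1 and 119.8 CPM after oxamate. The 4 conditions did not overlap, and all resistant libraries were below all parental ones. Oxamate raised PPP1R15A in parental cells (log2 fold change 0.36 ± 0.030, adjusted p = 6.30e-08) and lowered it in resistant cells (-0.18 ± 0.031, adjusted p = 0.00118). Between the lines the log2 fold change was -0.68 ± 0.031 under vehicle (adjusted p = 1.16e-11) and -1.22 ± 0.031 under oxamate (adjusted p = 7.87e-15).

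DDIT3 (chr12:57516588-57521737, minus strand, hg38) was, of the 10 genes, the one most lowered in resistant cells under vehicle. Its levels were 50.6, 50.9 and 49.4 CPM in parental vehicle, 56.4, 54.7 and 55.1 CPM in parental oxamate, 23.0, 24.1 and 27.4 CPM in resistant vehicle and 23.4, 22.8 and 26.1 CPM in resistant oxamate libraries. Every resistant library was below every parental library, and the 2 resistant conditions overlapped. The highest resistant value came from resistant vehicle replicate 3, one of the 2 libraries rich in nuclear-retained RNA. Between the lines the log2 fold change was -1.02 ± 0.053 under vehicle (adjusted p = 7.54e-11) and -1.20 ± 0.054 under oxamate (adjusted p = 6.66e-12), and without those libraries it was -1.10 ± 0.046 and -1.20 ± 0.045. The rise in parental cells under oxamate was small (0.14 ± 0.050, adjusted p = 0.0253) and was lost in 5 of 24 alternative fits: with library size alone (0.06), with the covariate for nuclear-retained RNA (0.05), and without parental vehicle replicate 1 (0.14), parental vehicle replicate 3 (0.13) or parental oxamate replicate 1 (0.13). DDIT3 overlaps MARS and MBD6 on the other strand, and the counting is not stated to use strand. It also overlaps AC022506.1, a protein-coding gene, on its own strand. All 12 expected counts of DDIT3 were whole.

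ATF3 had the lowest level per length of the 10 genes in resistant cells, at 1.87 ± 0.194 CPM per kilobase of exon after vehicle and 1.67 ± 0.124 after oxamate (SD, n = 3), and CHAC1 had it in parental cells, at 1.24 ± 0.0604 and 0.545 ± 0.0306. It was at 9.36, 9.01 and 8.72 CPM in parental vehicle, 10.6, 11.6 and 11.4 CPM in parental oxamate, 7.14, 7.04 and 8.44 CPM in resistant vehicle and 6.55, 6.35 and 7.30 CPM in resistant oxamate libraries. The 2 resistant conditions overlapped and lay below all parental libraries, and the highest resistant value came again from resistant vehicle replicate 3. Oxamate raised it in parental cells (log2 fold change 0.31 ± 0.069, adjusted p = 0.00110), a call that was lost with the covariate for nuclear-retained RNA (0.17 ± 0.092, adjusted p = 0.133), and in resistant cells the value was -0.16 ± 0.077 (adjusted p = 0.150). Between the lines it was -0.26 ± 0.072 under vehicle (adjusted p = 0.00353), a call that was lost with library size alone (-0.04, adjusted p = 0.616), and -0.73 ± 0.074 under oxamate (adjusted p = 1.31e-07).

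CEBPB, a C/EBP factor that can pair with ATF4, was at 165.0, 181.2 and 163.8 CPM in parental vehicle, 160.4, 152.4 and 148.1 CPM in parental oxamate, 101.6, 119.8 and 123.9 CPM in resistant vehicle and 104.5, 106.8 and 104.9 CPM in resistant oxamate libraries. All resistant libraries were below all parental libraries (log2 fold change -0.56 ± 0.057 under vehicle, adjusted p = 1.99e-07, and -0.54 ± 0.058 under oxamate, adjusted p = 2.54e-07). The fall with oxamate in parental cells (-0.15 ± 0.056, adjusted p = 0.0347) was lost in 7 of 24 alternative fits: with upper-quartile factors, DESeq2, the covariate for nuclear-retained RNA, both libraries rich in that RNA left out, and without parental vehicle replicate 2 (-0.10), parental oxamate replicate 2 (-0.14) or parental oxamate replicate 3 (-0.12). In resistant cells the value was -0.13 ± 0.058 (adjusted p = 0.131), and it was called without resistant vehicle replicate 1 (-0.21, adjusted p = 0.00763). All 12 of its expected counts were not whole, so RSEM had divided its reads, and CEBPB-AS1 overlaps it.

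DDIT4 (REDD1), an mTORC1 inhibitor also induced by low oxygen, had the highest level per length in all 4 conditions, with 226.4 ± 10.9, 260.3 ± 1.70, 224.3 ± 4.51 and 159.5 ± 1.53 CPM per kilobase of exon (SD, n = 3). Its CPM levels were 487.8, 466.7 and 443.1 in parental vehicle, 539.8, 533.7 and 533.8 in parental oxamate, 461.2, 471.0 and 452.5 in resistant vehicle and 330.8, 324.7 and 329.2 in resistant oxamate libraries. The 2 vehicle conditions overlapped, and the oxamate conditions lay on either side of them. DDIT4 rose with oxamate in parental cells (log2 fold change 0.20 ± 0.030, adjusted p = 2.94e-05) and fell in resistant cells (-0.49 ± 0.030, adjusted p = 3.24e-08), where 113 of 14582 genes had a lower log2 fold change. With both lines under oxamate it was lower in resistant cells (-0.71 ± 0.030, adjusted p = 3.29e-12). Between lines under vehicle it did not pass the test (-0.01 ± 0.030, adjusted p = 0.688, 95% interval -0.07 to 0.04), and with library size alone it was called higher in resistant cells (0.21, adjusted p = 6.63e-06), a scaling that moved the median of all genes by 0.22 in that comparison.

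Oxamate moved 9 of the 10 genes past the test in parental cells, 4 of them up and 5 of them down, beside 28.3% of all genes up and 30.4% down. Only CHAC1 changed by more than 1.5-fold, as did 9.38% of all genes. The genes that rose were ATF3, DDIT3, DDIT4 and PPP1R15A, and those that fell were ATF4, TRIB3, CHAC1, SESN2 and CEBPB. The median log2 fold change was -0.10, beside 0.00 over all genes. In resistant cells 5 genes passed, with CHAC1 up and ATF5, DDIT4, TRIB3 and PPP1R15A down, beside 9.01% of all genes up and 12.5% down. By edgeR's test none changed by more than 1.5-fold, with p adjusted or not, as 1.32% of all genes did, and the median was -0.14, beside 0.00 over all genes. TRIB3 lay just short of that line, at a log2 fold change of -0.581 where 1.5-fold is 0.585. Its alternative fits ranged from -0.591 to -0.539. Without the 2 libraries rich in nuclear-retained RNA the counts were 8 and 6, and with a covariate for that RNA they were 6 and 5.

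**Figure D3:**
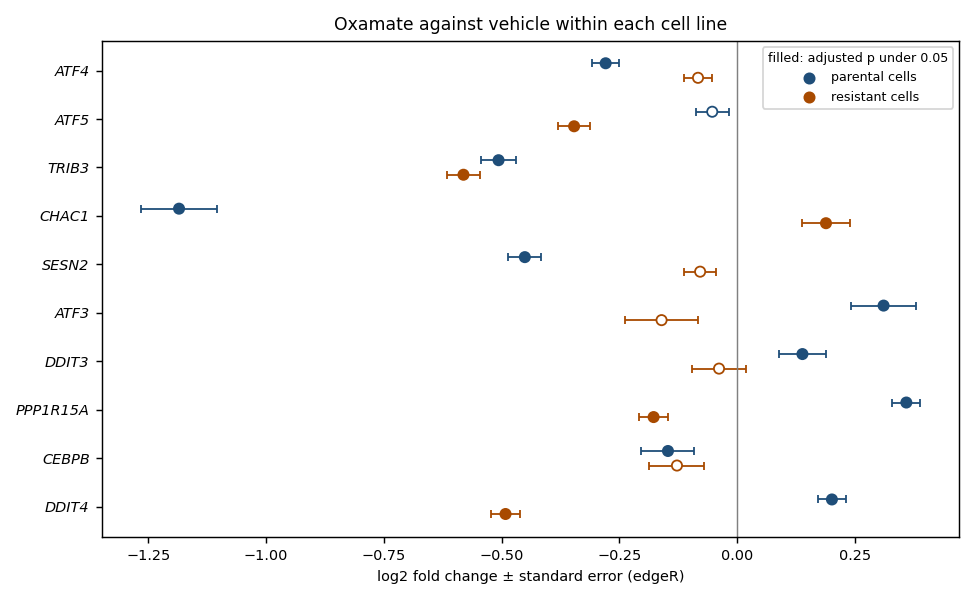
Response to oxamate for the 10 genes in parental and in resistant cells (x axis, log2 fold change of oxamate against vehicle). Points are edgeR estimates from 3 against 3 libraries, whiskers the standard error, and filled points passed an adjusted p of 0.05. The parental and resistant points lie on opposite sides of 0 for CHAC1, PPP1R15A and DDIT4, with both filled.

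The responses themselves differed between the lines for 7 of 10 genes, tested as an interaction, 3 of them higher and 4 lower in the resistant response, beside 22.7% and 21.4% of all genes. CHAC1 (1.37 ± 0.095, adjusted p = 2.91e-08) and DDIT4 (-0.69 ± 0.043, adjusted p = 9.68e-09) differed by more than 1.5-fold, as 7.52% of all genes did. The interaction for DDIT3 (-0.18 ± 0.076, adjusted p = 0.0720), TRIB3 and CEBPB (0.02 ± 0.081, adjusted p = 0.872) did not pass, which does not show that the lines respond alike, and that of DDIT3 passed without resistant vehicle replicate 1 (adjusted p = 0.0232) or resistant oxamate replicate 3 (adjusted p = 0.0171). The median of the interaction over the 10 genes was -0.13, beside -0.01 over all genes.

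The remaining comparisons set 1 line with oxamate against the other with vehicle. All 10 genes differed between resistant oxamate and parental vehicle cells and between resistant vehicle and parental oxamate cells, where 80.3% and 77.9% of all genes did. In order of mean level, neighbouring conditions did not pass the edgeR test (adjusted p under 0.05) for ATF4, ATF3, DDIT3, SESN2 and CEBPB between the 2 resistant conditions, for ATF5 between the 2 parental conditions, and for DDIT4 between the 2 vehicle conditions. The resistant vehicle and resistant oxamate libraries of ATF4 and of SESN2 nevertheless did not overlap. The genes most like each of the 10 over the 12 libraries, by Pearson r of log2 CPM among 9614 genes at a mean of 8 CPM or more, follow as a description. TRIB3 ran closest to CARS (r = 0.997) and PSAT1 (0.988), both of the amino acid and transfer RNA supply. CHAC1 ran closest to AGGF1 (0.999) and TRAK2 (0.999), PPP1R15A to ANGPTL4 (0.998) and PPP1R18 (0.998), and DDIT4 to HILPDA (0.988), a hypoxia gene, and STBD1 (0.974). ATF4 ran closest to ZC3H6 (0.995) and EGR1 (0.995), DDIT3 to RSRP1 (0.997) and RBM25 (0.996), and ATF3 to PML (0.982) and ITGB4 (0.974). For ATF5 they were IER3 (0.984) and CLIP2 (0.981), for SESN2 SOCS6 (0.992) and ITPRIPL2 (0.992), and for CEBPB MZT1 (0.982) and CTU1 (0.981). Such values rest largely on the 4 condition means, which all genes share. Among the 10 genes themselves, CHAC1 and PPP1R15A had r = -0.99, DDIT3 and CHAC1 -0.97, ATF4 and CHAC1 0.98 and DDIT3 and PPP1R15A 0.97 over the 12 libraries, and within conditions 0.31, -0.13, -0.14 and -0.16. Within conditions the pairs ranged from -0.57 (CHAC1 and CEBPB) to 0.83 (ATF3 and DDIT3).

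The other genes of the response were taken from lists of known targets and arms, and each count below is set beside the share of all genes called the same way. The enzymes and transporters that ATF4 is known to control for amino acid and transfer RNA supply (30 genes) fell with oxamate in both lines, with 23 lower and 3 higher in parental cells and 27 lower in resistant cells, where 30.4% and 12.5% of all genes were lower. The median log2 fold change was -0.19 and -0.35, beside 0.00 in both over all genes. ASNS, which makes asparagine, fell from 72.1 ± 0.759 to 48.2 ± 1.45 CPM in parental cells (log2 fold change -0.58 ± 0.028, adjusted p = 1.76e-10) and from 81.0 ± 1.26 to 51.1 ± 0.861 CPM in resistant cells (-0.66 ± 0.028, adjusted p = 4.79e-10). MARS, the methionyl transfer RNA synthetase, had the smallest p downward in parental cells, at 104.3 ± 1.63 and 66.3 ± 0.836 CPM (log2 fold change -0.65 ± 0.024). The amino acid transporter gene SLC7A5 had it in resistant cells, at 407.3 ± 8.42 and 242.3 ± 3.19 CPM (-0.75 ± 0.026).

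Between the lines, the same list was mixed. Under vehicle 16 of 30 genes were higher in resistant cells and 9 lower, and under oxamate 10 were higher and 17 lower, where 38.4% and 37.3%, and 40.6% and 39.7%, of all genes were, with medians of 0.08 and -0.12 beside 0.03 and 0.01 over all genes. Library size alone moved the median of all genes by 0.22 under vehicle and 0.32 under oxamate. With that scaling 24 genes of the list were higher and 2 lower under vehicle, and 20 higher and 3 lower under oxamate. The median of the list stood at 0.30 and 0.20, beside 0.24 and 0.34 over all genes. Of all genes, 8540 were then called higher and 2769 lower under vehicle, and 9133 higher and 2819 lower under oxamate. SLC7A11, the cystine transporter, rose most clearly, from 2.03 ± 0.124 CPM in parental vehicle to 13.9 ± 0.785 CPM in resistant vehicle libraries (log2 fold change 2.79 ± 0.079, and 3.35 ± 0.093 with both lines under oxamate). ALDH18A1, of proline synthesis, fell most clearly under vehicle (-0.37 ± 0.026) and SLC3A2, the partner of SLC7A5, under oxamate (-0.75 ± 0.027).

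Further known ATF4 targets (18 tested of 20) rose with oxamate in parental cells in 11 cases and fell in 5, and in resistant cells 10 fell, where over all genes 28.3% rose and 30.4% fell in parental cells and 12.5% fell in resistant cells. The medians were 0.14 and -0.15, beside 0.00 in both over all genes. GDF15, a secreted stress hormone, rose from 13.4 ± 0.504 to 18.0 ± 1.17 CPM in parental cells and fell from 15.4 ± 0.636 to 6.00 ± 0.572 CPM in resistant cells (log2 fold change -1.36 ± 0.069), an interaction of -1.79 ± 0.091 by edgeR (adjusted p = 1.71e-09). MAP1LC3B, of autophagy, rose in parental cells (0.40 ± 0.027), and CEBPG, a C/EBP partner of ATF4, fell (-0.44 ± 0.027). Between the lines 9 of 18 were higher and 7 lower under vehicle, and 5 higher and 11 lower under oxamate. Over all genes the shares were 38.4% and 37.3%, and 40.6% and 39.7%. The medians were 0.11 and -0.39, beside 0.03 and 0.01 over all genes. With library size alone the counts were 12 and 4, and 7 and 8. The medians were then 0.33 and -0.06, beside 0.24 and 0.34 over all genes. The smallest p belonged to LMO4 upward (2.11 ± 0.075 and 2.94 ± 0.087) and to HERPUD1 and MAP1LC3B downward (-0.60 ± 0.025 and -0.89 ± 0.027).

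Most genes listed for the IRE1/XBP1 and ATF6 arms, which serve the endoplasmic reticulum in the unfolded protein response, were lower in resistant cells. Of 18 genes 15 were lower and 1 higher under vehicle and 14 lower and 2 higher under oxamate, where 37.3% of all genes were lower and 38.4% higher under vehicle and 39.7% lower and 40.6% higher under oxamate. The medians were -0.50 and -0.47, beside 0.03 and 0.01 over all genes. With library size alone the counts were 11 lower and 2 higher, and 9 lower and 6 higher. The medians were then -0.28 and -0.15, beside 0.24 and 0.34 over all genes. HSPA5 (BiP), the main chaperone of the reticulum, was at 1638 ± 11.3 CPM in parental vehicle, 1803 ± 9.81 CPM in parental oxamate, 828.6 ± 16.9 CPM in resistant vehicle and 715.9 ± 4.52 CPM in resistant oxamate libraries. EDEM1, of the degradation pathway, was the gene with the smallest p upward (0.79 ± 0.036 under vehicle and 0.91 ± 0.037 under oxamate). With oxamate 7 were higher and 7 lower in parental cells, beside 28.3% and 30.4% of all genes, and 1 was higher and 7 lower in resistant cells, beside 9.01% and 12.5%.

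On the kinase and phosphatase side of eIF2, of 14 genes 1 was higher and 9 lower in resistant cells under vehicle. Under oxamate 2 were higher and 9 lower. The shares of all genes were 38.4% and 37.3%, and 40.6% and 39.7%, and at most 1 gene of the list passed 1.5-fold. The medians were -0.16 and -0.11, beside 0.03 and 0.01 over all genes. With library size alone 7 were higher and 5 lower under vehicle and 8 higher and 1 lower under oxamate. The medians of the list were then 0.06 and 0.21, still below the 0.24 and 0.34 of all genes. IMPACT, an inhibitor of the kinase GCN2, rose in resistant cells (0.52 ± 0.032 under vehicle) and PPP1CC, a catalytic subunit of the phosphatase, fell (-0.47 ± 0.030). Oxamate gave 3 higher and 5 lower in parental cells, beside 28.3% and 30.4% of all genes, and 3 lower in resistant cells, beside 12.5%. A list of 9 genes held the eIF2 and eIF2B subunits and EIF2A, which is not a subunit of either. Of these 9, 7 were lower in resistant cells under vehicle, led by EIF2S1 (-0.47 ± 0.031), and 6 under oxamate. The shares of all genes were 37.3% and 39.7%, and with library size alone 6 of the 9 were higher in both. The medians of these genes were then 0.11 and 0.14, beside 0.24 and 0.34 over all genes.

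The remaining lists are set beside the same shares, which with oxamate were 28.3% of all genes higher and 30.4% lower in parental cells and 9.01% higher and 12.5% lower in resistant cells, with medians of 0.00. The other ATF, CREB and C/EBP factors (20 tested of 21) gave 8 higher and 10 lower with oxamate in parental cells (median -0.07) and 9 lower in resistant cells (median -0.10). Between the lines under vehicle 3 were higher and 10 lower, beside 38.4% and 37.3% of all genes. Library size alone gave 10 higher and 7 lower there, with a median of 0.12 beside 0.24 over all genes. ATF7 had the smallest p downward between the lines under vehicle (-0.80 ± 0.037), and MAFF, a small MAF factor, rose in parental cells with oxamate (0.38 ± 0.034) and fell in resistant cells (-0.45 ± 0.037).

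HIF targets outside glycolysis (18 tested of 19), set beside DDIT4 because low oxygen induces it, rose with oxamate in parental cells in 16 cases and fell in 1 (median 0.69), and in resistant cells 8 rose and 5 fell (median 0.12). Between the lines under oxamate 17 of 18 were lower in resistant cells (median -0.88), beside 39.7% of all genes. Of 14 p53 targets 8 rose and 3 fell with oxamate in parental cells (median 0.15), beside 28.3% and 30.4% of all genes. PLK3 had the smallest p upward there (0.58 ± 0.040). In resistant cells 2 rose and 3 fell (median 0.01), counts near the shares of all genes. Of 21 immediate early genes 5 rose and 8 fell in parental cells (median -0.02), near the shares of all genes in those cells, and 13 fell in resistant cells (median -0.14).

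**Figure D4:**
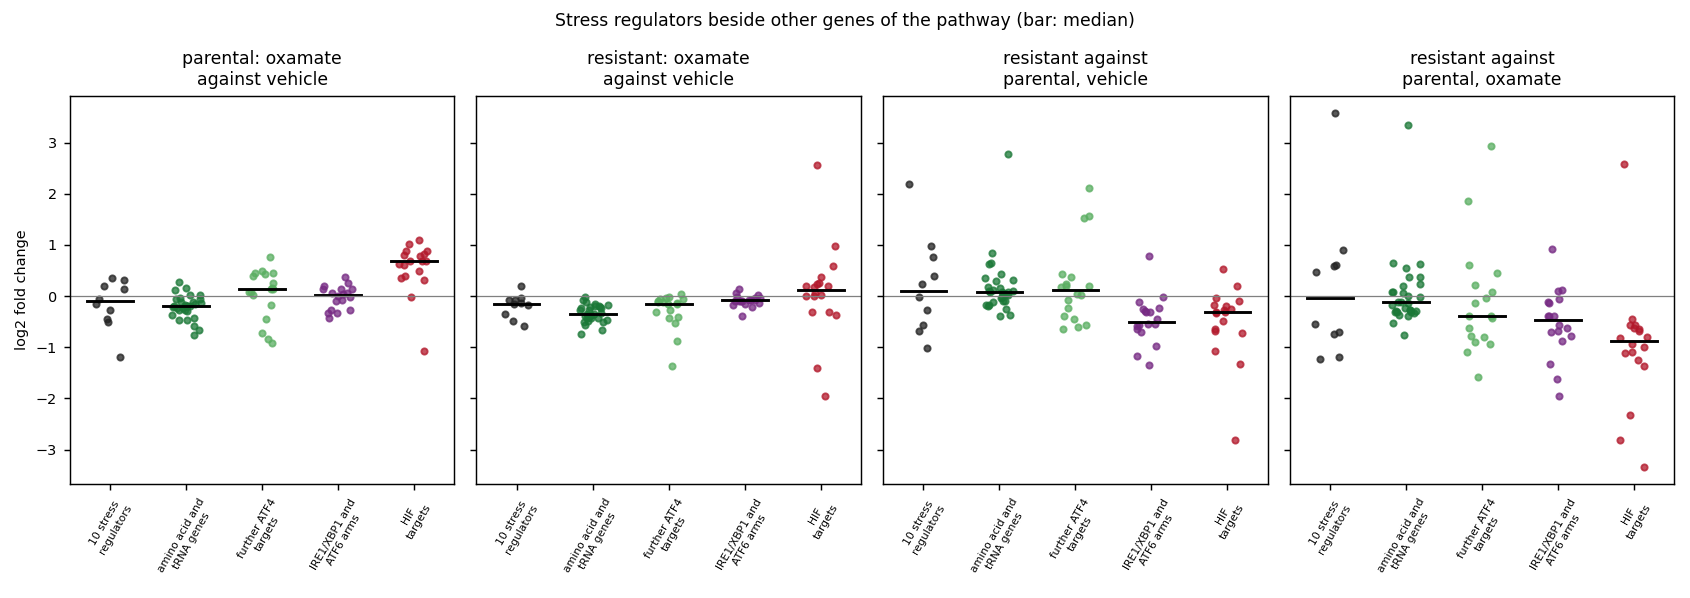
Log2 fold changes (y axis) of the 10 stress regulators and of 4 lists of genes beside them (x axis), 1 panel for each comparison. Points are genes and bars are medians, with the medians of the amino acid and transfer RNA genes at -0.19 and -0.35 in the 2 oxamate panels and those of the IRE1/XBP1 and ATF6 arms at -0.50 and -0.47 in the 2 panels of resistant against parental cells.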

How the data were processed

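RNA-seq of MIAPaCa2 cells gave 12 libraries, 3 in each of 4 conditions. According to the study's methods, mRNA was enriched with oligo(dT) beads and libraries were made with a NEBNext Ultra kit. The authors deposited RSEM expected counts per gene symbol, not normalized. The submitters' processing notes name Bowtie2 2.1.0, RSEM 1.2.15 and hg38. The methods also describe STAR and featureCounts, but 11.6% of the values are not whole, as RSEM gives.

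Counts were rounded and tested in R 4.3.3 with edgeR 4.0.16 (filterByExpr, TMM, quasi-likelihood fit to 4 condition means), with Benjamini-Hochberg adjustment over 14582 genes. Alternatives were other scalings and filters, unrounded counts, limma-voom (limma 3.58.1), DESeq2 1.42.0, a replicate block, a covariate for nuclear-retained RNA, and libraries left out. Positions and exon lengths came from GENCODE and promoters from RefSeq (all 10 genes matched). The script was tested on simulated data. The genes and lists were chosen with earlier results of these data known. Named list genes were those with the smallest p in each direction, plus ASNS. The scalings of the lists were added after seeing the data. Samples were not paired by replicate number in the main fit, because no pairing is stated. Across conditions, 3 of 18 same-number pairs and 2 of 36 different-number pairs of libraries had a correlation over 0.1. The medians were 0.025 and -0.025, and such correlations cannot decide whether the numbers pair samples.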

Additional observations from a re-analysis of the deposited data

Results flagged for a closer look

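The oxamate response of 7 of the 10 genes differed between parental and resistant cells by edgeR's interaction test (log2 difference, resistant minus parental response). The difference was 1.37 for CHAC1 (adjusted p = 2.91e-08), which fell in parental cells and was higher in resistant cells. It was -0.69 for DDIT4 (adjusted p = 9.68e-09) and -0.54 for PPP1R15A (adjusted p = 1.42e-07), which rose in parental and fell in resistant cells. It was -0.47 for ATF3 (adjusted p = 0.00152), which passed in parental cells only. It was 0.37 for SESN2 (adjusted p = 1.95e-05) and 0.20 for ATF4 (adjusted p = 0.00108), which fell in parental cells and did not pass in resistant cells. For ATF5 it was -0.29 (adjusted p = 0.000171), and that gene passed in resistant cells only. No cause was tested.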

How the results depend on the processing

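Over 24 alternative fits, 1146 of 1190 gene-by-comparison values kept their direction and side of the threshold, 18 lost the call, 14 gained one and 12 changed sign. The sign changes were DDIT3 with oxamate in resistant cells (0.038 without both libraries rich in nuclear-retained RNA, and -0.10 to 0.038 with 1 library left out), DDIT4 between the lines under vehicle (0.062 with upper-quartile factors, 0.21 with library size alone, 0.0054 with a mean count of at least 25, 0.0070 with the covariate, and -0.050 to 0.022 with 1 library left out), the interaction of TRIB3 (0.030 with library size alone) and that of CEBPB (-0.064 to 0.075 with 1 library left out). Of these, only DDIT4 with library size alone was called. With a 1.5-fold minimum, adjusted or not, 1, 0, 5 and 2 genes were called for the parental response, the resistant response, the lines under vehicle and the interaction, and 8 for the lines under oxamate. Leaving out 1 library gave 8 to 9, 4 to 6, 9 to 9, 10 to 10 and 7 to 8 genes for the 2 responses, the lines under vehicle and under oxamate, and the interaction. With the replicate block 9, 6, 9, 10 and 7 genes were called, and ATF4 in resistant cells was called at -0.08 (adjusted p = 0.0243). The causes were not tested. Depth limits CHAC1 most, with as few as 59 expected counts in a library.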
